A study of Mus musculus with 6 samples.

Results

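Voltage-gated calcium channels open when a neuron depolarises and let calcium into the cell. Of the genes that encode their subunits, 10 were followed here in mouse trigeminal ganglion, chosen by symbol: the pore-forming genes Cacna1a, Cacna1b, Cacna1c, Cacna1d and Cacna1h, the α2δ genes Cacna2d1, Cacna2d2 and Cacna2d3, and the β genes Cacnb3 and Cacnb4. All 10 members were found among the 17524 genes of the deposited table, and all 10 passed the filter on low values. The trigeminal ganglion holds the sensory neurons of the face and meninges. Messenger RNA was sequenced in bulk from ganglia of mice with the genotype WT, in 3 libraries of an NTG group and 3 of a vehicle group. NTG commonly stands for nitroglycerin in mouse migraine work, but the labels give only the abbreviation, and the sources used here give no strain, age, sex, dose or time. Replicates are not said to come from different mice, so every p-value rests on a spread among samples that could be technical. In bulk RNA, fewer cells of a type and less RNA per cell cannot be told apart.

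The α1 subunit forms the pore and sets the channel type. Cav2 channels (Cacna1a for the P/Q type, Cacna1b for the N type) trigger transmitter release at nerve endings, Cav1 channels (Cacna1c, Cacna1d) are the L type blocked by dihydropyridines, and the Cav3 channel of Cacna1h is the T type, which opens at low voltage. Cytoplasmic β subunits bind the loop between the first and second repeats of Cav1 and Cav2 pores and help carry them to the membrane. Extracellular α2δ subunits raise the number of channels at the surface, and the α2δ-1 and α2δ-2 proteins bind gabapentin and pregabalin.

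The sequences below show what the subunits share and how differently their genes spell it. Stretches are coding, 5′ to 3′, from the longest GENCODE M21 transcript on GRCm38, and capitals mark G or C at the third base of a codon. The longest run of amino acids that Cacnb4 and Cacnb3 have in common is 29 residues. It is encoded by parts of exons 9 and 10 of Cacnb4 (chr2:52455682-52464668, minus strand, intron included in the span) and of exons 7 and 8 of Cacnb3 (chr15:98641400-98641643, plus strand).
Cacnb4: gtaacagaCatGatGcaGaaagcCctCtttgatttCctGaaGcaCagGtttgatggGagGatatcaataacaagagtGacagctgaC
Cacnb3: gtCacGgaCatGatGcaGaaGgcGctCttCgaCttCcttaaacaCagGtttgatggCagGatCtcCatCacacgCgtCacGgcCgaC
These runs differ at 17 of 87 bases, and G or C stands at the third position of 15 codons in Cacnb4 and of 24 in Cacnb3. The longest shared run of Cacna2d1 and Cacna2d2 is 27 residues, encoded in exons 14 and 15 of both genes (chr5:16313653-16314947 and chr9:107514643-107514901, plus strand).
Cacna2d1: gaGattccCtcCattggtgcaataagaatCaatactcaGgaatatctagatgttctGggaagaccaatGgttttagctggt
Cacna2d2: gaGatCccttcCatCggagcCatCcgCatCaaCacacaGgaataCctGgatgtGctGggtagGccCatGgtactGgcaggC
They differ at 21 of 81 bases, with G or C at the third position of 7 codons in Cacna2d1 and of 19 in Cacna2d2. The docking motif for β subunits was found once each in Cacna1a, Cacna1b, Cacna1c and Cacna1d and was not found in Cacna1h, whose Cav3 channels are known to form without β subunits. It lies in exons 8 and 9 of Cacna1a (chr8:84536125-84536403, plus strand) and of Cacna1b (chr2:24719100-24719992, minus strand).
Cacna1a: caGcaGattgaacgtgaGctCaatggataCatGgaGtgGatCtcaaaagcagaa
Cacna1b: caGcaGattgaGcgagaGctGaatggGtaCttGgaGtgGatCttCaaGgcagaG

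The table gave gene counts divided by a size factor of each library, called normalised reads here. Summed over the 17524 genes of the table, the reads recovered from these values were 19293926, 19248592 and 23774244 in NTG replicates 1 to 3. In vehicle replicates 1 to 3 they were 18813027, 20191300 and 18825239. Tests were limma-trend on log2(value + 1) over 17475 genes, p-values adjusted by Benjamini-Hochberg, and calls made at 0.05. The libraries differed in base composition: deviations from the gene means sloped with transcript GC content by -0.22, -0.17 and -0.08 log2 units per 10 points in NTG replicates 1 to 3, against 0.11, 0.19 and 0.16 in vehicle replicates 1 to 3. The tests of the members and of the gene lists are therefore also given with the smooth dependence on transcript GC content and length taken out library by library. Levels, class shares and summed CPM are as deposited. Of 14 neuron markers, 3 rose and 5 fell, and their summed level was 22316 to 23172 CPM in NTG and 22899 to 24094 CPM in vehicle. Removal of the trends left 2 rises and 3 falls. For comparison, 12.3% of all genes tested rose and 13.5% fell, and 9.01% of those with a known transcript passed with the trends removed. Of 5 satellite glia markers 3 rose and 1 fell (1 and 1 with the trends removed), and of 6 Schwann cell markers 1 rose and 2 fell (0 and 1). Of 6 immune cell markers 0 rose and 2 fell (0 and 1), summed to 142 to 161 CPM in NTG and 193 to 202 CPM in vehicle. Of 5 pituitary markers 0 rose and 1 fell before and after, summed to 16.5 to 115.6 CPM in NTG and 75.9 to 188.9 CPM in vehicle. NTG replicate 1 stood apart there, with 250 normalised reads of the growth hormone gene Gh, against 1789.6 and 2162 in NTG replicates 2 and 3. Their part in the channel genes was not tested.

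Cacnb4 and Cacna2d1 rose in NTG, and 3 genes fell, Cacnb3, Cacna2d2 and Cacna1a. The changes were small, from -23.1% in Cacna1a to 27.1% in Cacnb4. Among all genes tested, 25.8% passed the threshold, 12.3% as rises and 13.5% as falls. The 3 NTG values stood apart from the 3 vehicle values in 5 of the 10 members, the same 5 genes, and in 39.7% of all genes tested. The median log2 fold change of the 10 members was -0.13, beside 0.00 over all genes. After removal of the GC and length trends 0 of the 10 members passed, against 9.01% of the 16278 genes with a known transcript, and the members' median was -0.07, beside 0.01. At an unadjusted p under 0.05 that fit held 2 members, Cacna1a and Cacna2d2.

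**Figure D1:**
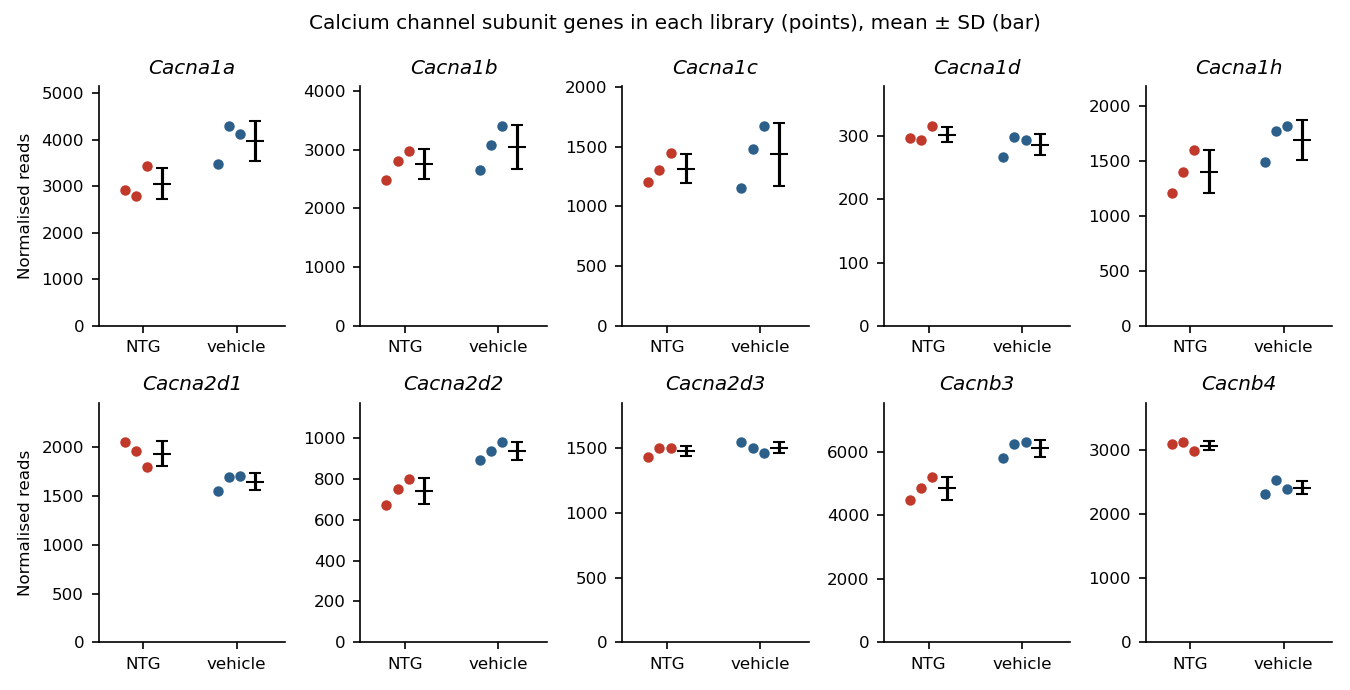
Normalised reads (vertical axes, each from 0) of the 10 calcium channel genes in the 3 NTG libraries (red points) and the 3 vehicle libraries (blue points), in replicate order from left to right, with the mean ± SD as a black bar. The points of both groups stand apart for Cacna1a, Cacna2d1, Cacna2d2, Cacnb3 and Cacnb4.

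The β genes moved in opposite directions. Cacnb4 encodes β4, a partner of Cav2.1 channels whose loss causes the ataxia and seizures of the lethargic mouse. Cacnb4 had 3103, 3122 and 2989 normalised reads in NTG replicates 1 to 3, against 2319, 2529 and 2402 in vehicle replicates 1 to 3. Every NTG library was above every vehicle library. Cacnb4 rose by 0.35 ± 0.06 on the log2 scale (SE, limma adjusted p = 0.000201), a rise of 27.1% with a 95% interval of 17.0% to 38.2%. It passed in each of the 6 fits that left out 1 library (limma adjusted p at most 0.00261). After removal of the GC and length trends it was 0.05 ± 0.05 (limma adjusted p = 0.645), with an interval of -4.04% to 11.6%.

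Cacnb3 encodes β3, a partner of N-type channels in sensory neurons. Cacnb3 had 4481, 4869 and 5193 normalised reads in NTG, against 5806, 6224 and 6285 in vehicle. All 3 NTG libraries were below all 3 vehicle libraries. Cacnb3 fell by 0.33 ± 0.06 on the log2 scale (SE, limma adjusted p = 0.000311), a change of -20.7% with an interval of -27.1% to -13.7%. It passed in each fit that left out 1 library (limma adjusted p at most 0.00508). Once the trends were removed the log2 fold change was 0.01 ± 0.04 (limma adjusted p = 0.897), and the interval ran from -5.25% to 7.62%.

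Because both values of a ratio come from 1 library, it does not depend on how libraries were scaled. The ratio of Cacnb4 to Cacnb3 was 0.692, 0.641 and 0.576 in NTG and 0.399, 0.406 and 0.382 in vehicle. All NTG ratios were higher, by 0.68 on the log2 scale, with SDs of 0.13 in NTG and 0.05 in vehicle. The exact two-sided permutation p was 0.1, and 3 libraries against 3 allow none smaller. With the trends removed the difference was 0.04 (exact permutation p = 0.4), and the groups overlapped.

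The α2δ genes split in the same manner. Cacna2d1 encodes α2δ-1, which is raised in sensory neurons after nerve injury and is a target of gabapentin. Cacna2d1 had 2047, 1957 and 1797 normalised reads in NTG, against 1546, 1692 and 1702 in vehicle. NTG replicate 3 was the lowest NTG library and still above all vehicle libraries. Cacna2d1 rose by 0.23 ± 0.07 on the log2 scale (SE, limma adjusted p = 0.0145), a rise of 17.4% with an interval of 6.51% to 29.3%. Of the 5 calls only this one was lost when 1 library was left out: limma's adjusted p was 0.0852 with NTG replicate 1 omitted, 0.0652 with NTG replicate 2 omitted and 0.0610 with vehicle replicate 1 omitted. After removal of the trends its sign turned, to -0.05 ± 0.06 (limma adjusted p = 0.651), with an interval of -11.5% to 4.78%.

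Cacna2d2 encodes α2δ-2, the subunit lost in ducky mice. Cacna2d2 had 670.5, 751 and 799 normalised reads in NTG, against 890.3, 935 and 977 in vehicle, so the groups did not overlap. Cacna2d2 fell by 0.34 ± 0.08 on the log2 scale (SE, limma adjusted p = 0.00405), a change of -20.9%. It passed in each fit that left out 1 library. With the trends removed the log2 fold change was -0.18 ± 0.07 (limma adjusted p = 0.146), with an interval of -20.4% to -1.67%.

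Cacna2d3 encodes α2δ-3, a subunit that affects pain sensing in flies and mice. Cacna2d3 had 1433, 1503 and 1501 normalised reads in NTG and 1542, 1503 and 1461 in vehicle, and the groups overlapped. Cacna2d3 had a log2 fold change of -0.02 ± 0.06 (SE, limma adjusted p = 0.838), with an interval of -10.1% to 7.92%. After removal of the trends it was -0.08 ± 0.06 (limma adjusted p = 0.449), with an interval of -13.4% to 2.76%. The ratio of Cacna2d1 to Cacna2d2 was 3.05, 2.61 and 2.25 in NTG and 1.74, 1.81 and 1.74 in vehicle, higher in all NTG libraries by 0.57 on the log2 scale (exact permutation p = 0.1). Without the trends the difference in that ratio was 0.12 and the groups overlapped (exact permutation p = 0.2). The ratio of Cacna2d3 to Cacna2d1 was 0.700, 0.768 and 0.835 in NTG and 0.997, 0.888 and 0.858 in vehicle, a log2 difference of -0.25 (exact permutation p = 0.1), which was -0.03 with the trends removed (exact permutation p = 0.7).

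Among the pore genes of the 10 members only Cacna1a passed. Cacna1a, in which mutations cause familial hemiplegic migraine in humans, had 2926, 2799.6 and 3432 normalised reads in NTG, against 3480.4, 4297 and 4128 in vehicle. The highest NTG library, replicate 3, lay just under the lowest vehicle library, replicate 1. Cacna1a fell by 0.38 ± 0.09 on the log2 scale (SE, limma adjusted p = 0.00514), a change of -23.1% with an interval of -32.3% to -12.6%, and the largest log2 change of the 10 members. It passed in each fit that left out 1 library (limma adjusted p at most 0.0392). With the GC and length trends removed the log2 fold change was -0.15 ± 0.06 (limma adjusted p = 0.122), with an interval of -16.8% to -1.86%. With the trends removed Cacna1a passed in 3 of 8 alternatives, among them those without NTG replicate 3 and without vehicle replicate 1, and its adjusted p over the alternatives with the trends removed lay between 0.0391 and 0.512.

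Cacna1b, the N-type pore and the target of ziconotide, had 2479, 2799.6 and 2974 normalised reads in NTG and 2654, 3079.6 and 3401 in vehicle. The groups overlapped, with a log2 fold change of -0.14 ± 0.09 (SE, limma adjusted p = 0.248), which became -0.10 after removal of the trends (limma adjusted p = 0.490). Cacna1b passed when vehicle replicate 1, the lowest vehicle library, was left out (-0.24, limma adjusted p = 0.0231). The ratio of Cacna1a to Cacna1b was 1.18, 1.0 and 1.15 in NTG and 1.31, 1.40 and 1.21 in vehicle. The log2 difference of that ratio was -0.23 (exact permutation p = 0.1), and -0.05 with the trends removed (exact permutation p = 0.7).

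The L-type pore genes did not pass. Cacna1c, which vascular smooth muscle also uses, had 1202, 1301 and 1446 normalised reads in NTG and 1152, 1480.1 and 1672 in vehicle. Vehicle replicate 1 was the lowest of all 6 libraries, and the log2 fold change of -0.11 ± 0.13 (SE, limma adjusted p = 0.573) had the widest error of the 10 members. Once the trends were removed it was -0.17 (limma adjusted p = 0.518). Without that library the value was -0.26 (limma adjusted p = 0.0258), and -0.29 with the trends also removed (limma adjusted p = 0.0426). Summed smooth muscle and pericyte markers spanned 216 to 218 CPM in NTG and 202 to 223 CPM in vehicle, with 1 rise and 1 fall among 7 genes (0 and 0 with the trends removed), and their part in Cacna1c was not tested. Cacna1d had 296, 293 and 316 normalised reads in NTG and 267, 297 and 294 in vehicle (log2 fold change 0.08 ± 0.11, limma adjusted p = 0.661). It was the member with the fewest reads, 245 to 364 a library, and its interval ran from -10.2% to 23.9%. Its log2 fold change after removal of the trends was -0.02 (limma adjusted p = 0.952).

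Cacna1h, the T-type pore gene, is high in low-threshold mechanoreceptors such as D-hair neurons. Cacna1h had 1208, 1394 and 1600.5 normalised reads in NTG, against 1485, 1769 and 1817 in vehicle. NTG replicate 3 lay above vehicle replicate 1. The log2 fold change of -0.27 ± 0.10 just missed the threshold (SE, limma adjusted p = 0.0536). Cacna1h passed in DESeq2 on the recovered reads (adjusted p = 0.0287), with scaling to library totals (limma adjusted p = 0.0460), without NTG replicate 3 (limma adjusted p = 0.00433) and without vehicle replicate 1 (0.00691), and over all alternatives its adjusted p lay between 0.000586 and 1. With the trends removed the value was 0.01 ± 0.07 (limma adjusted p = 0.975). Of 7 markers of low-threshold mechanoreceptors 1 rose, the receptor gene Ntrk2 (log2 fold change 0.19, limma adjusted p = 0.0115), and 0 fell. Over all genes tested 12.3% rose and 13.5% fell. Necab2 (-0.27, limma adjusted p = 0.0654) and Th (-0.39, 0.0666) did not pass, with all NTG libraries below all vehicle libraries. Slc17a8 had a positive log2 fold change and did not pass (0.29, limma adjusted p = 0.289), and its groups overlapped. The median log2 fold change of the 7 was 0.10. None of the 7 passed after removal of the trends. Ntrk2 then had 0.09 (limma adjusted p = 0.271), Necab2 0.14 (0.454), Th -0.29 (0.274) and Slc17a8 0.09 (0.828). On the values as deposited, the number of members that fell was 6 without vehicle replicate 1, against 3 with all libraries. Over all genes 4678 passed without that library, against 4512 with all libraries. With the trends also removed, 2 members fell without it.

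**Figure D2:**
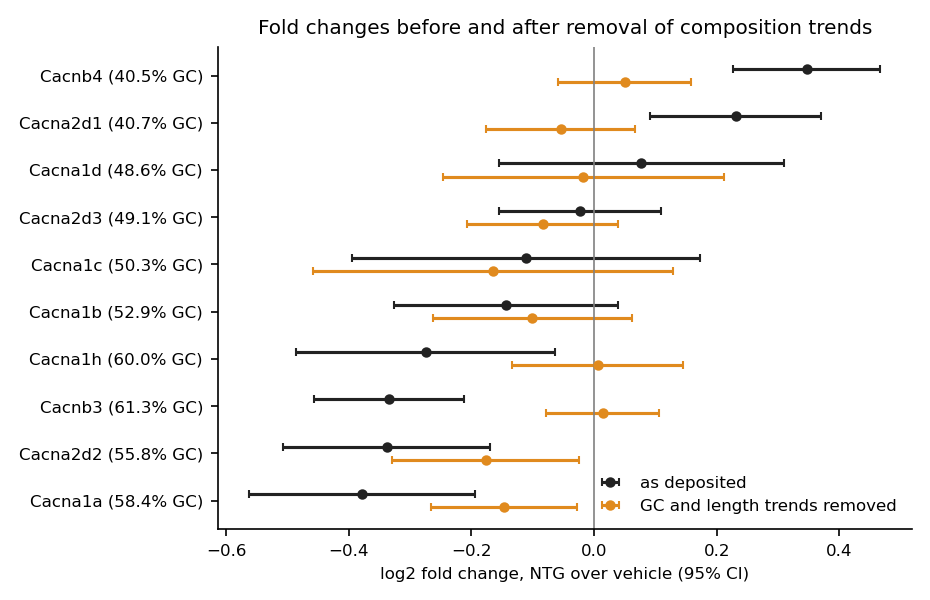
Log2 fold change of NTG over vehicle (horizontal axis) for the 10 members, sorted by the value as deposited, with 95% confidence intervals from limma and each gene's transcript GC content in its label. Black points are the values as deposited, of which 5 passed the adjusted threshold. Orange points are those after removal of the GC and length trends, where 0 passed.

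The order of the fold changes followed base composition. Cacnb4 and Cacna2d1, the members that rose, have the lowest transcript GC contents, 40.5% and 40.7%. Cacna1d, Cacna2d3, Cacna1c and Cacna1b, which did not pass, lie between 48.6% and 52.9%. Cacna2d2 (55.8%), Cacna1a (58.4%), Cacna1h (60.0%) and Cacnb3 (61.3%) have the highest, and had the 4 lowest fold changes. Across the 10 genes, GC content and log2 fold change gave a Spearman's rho of -0.90 (Pearson's r = -0.96), beside -0.64 (Pearson's r = -0.53) across 14932 protein-coding genes. Both are descriptions, since genes measured in the same libraries are not independent replicates.

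The transcripts of β4 and α2δ-1 owe their low GC content partly to long 3′ untranslated regions, of 6167 bases at 35.8% GC in Cacnb4 and 3840 bases at 35.4% in Cacna2d1. Their coding parts are at 51.0% and 43.4%, against 58.8% in Cacnb3 and 55.9% in Cacna2d2. At the third codon position G or C makes up 55.5% in Cacnb4 and 43.2% in Cacna2d1, against 71.8% in Cacnb3, 70.8% in Cacna2d2 and 74.7% in Cacna1a. The shared runs of the β and α2δ pairs printed above differ in the same direction, while the docking motif does not follow the whole gene. Of its 18 codons, 9 in Cacna1a and 14 in Cacna1b have G or C at the third position, against 74.7% and 66.5% of all codons in these genes. In Cacna1c and Cacna1d 10 and 15 of the 18 do, against 68.7% and 58.9% of all codons. With protein-coding genes cut into 10 equal bins by GC content, the lowest bin holds Cacnb4 and Cacna2d1. Its median log2 fold change was 0.32, and 684 of its 1494 genes rose while 16 fell. In the highest bin, which holds Cacna1h and Cacnb3, it was -0.31, with 1 rise and 834 falls. In all 5 members that passed, NTG replicate 3 was the NTG library nearest to the vehicle values. Its GC slope was the smallest in size of the NTG libraries. Vehicle replicate 1 had the smallest slope of the vehicle libraries. It was the vehicle library nearest to the NTG values in Cacnb3, Cacna2d2 and Cacna1a, but the farthest in Cacnb4 and Cacna2d1. The part of the slopes in these positions was not tested. Whether the slopes arose in the animals or in library preparation was not tested.

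**Figure D3:**
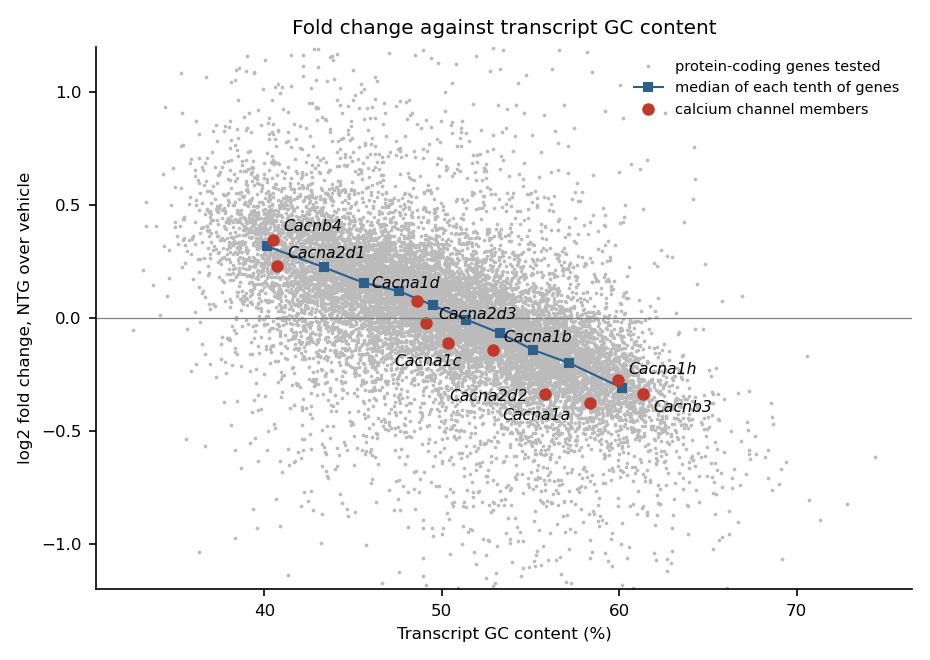
Log2 fold change of NTG over vehicle (vertical axis, linear scale) against transcript GC content (horizontal axis, percent) for the 14932 protein-coding genes tested (grey), the median of each of 10 equal bins of them (blue squares, at the median GC content of the bin) and the 10 calcium channel genes (red). The vertical axis is limited to ±1.2, which leaves out 160 genes, and the red points descend from Cacnb4 at 0.35 to Cacna1a at -0.38.

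Levels of different genes were compared per kilobase of the longest transcript, which understates genes whose main isoform is shorter. Cacnb3 was by far the highest member, at 1773 ± 131 normalised reads per kb in NTG and 2233 ± 95.4 in vehicle (SD, n = 3 each), 4.46 times the vehicle level of the next gene, Cacna1a. In vehicle order, Cacna1a (500.7 per kb) and Cacna2d3 (406) overlapped over the 6 libraries. So did Cacna1b (313) and Cacnb4 (294), and Cacna2d1 (221) and Cacna1h (205). The chain of overlaps went on from Cacna1h to Cacna2d2 (161) and from Cacna2d2 to Cacna1c (109). Cacna1d stood clear at the bottom, with 34.7 ± 1.39 per kb in NTG and 32.9 ± 1.93 in vehicle. In NTG Cacnb4 (373 ± 8.70) was above Cacna1b (283 ± 25.8).

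The make-up of each subunit class was then set against the total of that class per kb, with the other subunit genes of the table included. Cacnb3 made up 70.4% ± 1.07 of the 4 β genes in NTG and 74.4% ± 0.222 in vehicle (SD, n = 3 each). Cacnb4 made up 14.9% ± 1.17 in NTG and 9.80% ± 0.337 in vehicle. The summed level of the β genes was 2518 ± 153 normalised reads per kb in NTG and 3000.1 ± 133 in vehicle, without overlap. The summed level of the α2δ genes overlapped, at 788 ± 10.5 per kb in NTG and 789 ± 8.94 in vehicle, while the share of Cacna2d1 was 33.0% ± 2.29 in NTG and 28.1% ± 1.19 in vehicle and that of Cacna2d2 was 16.2% ± 1.34 in NTG and 20.4% ± 0.781 in vehicle. The summed level of the 9 pore genes was 1021.7 ± 99.5 per kb in NTG and 1221.9 ± 132.6 in vehicle, and the groups overlapped. Among these genes Cacna1a held 37.7% ± 1.84 in NTG and 41.0% ± 1.28 in vehicle, and Cacna1b 27.7% ± 1.17 in NTG and 25.6% ± 0.988 in vehicle. The shares of all genes in these classes except Cacna2d3, Cacna1h and Cacna1s did not overlap between groups. Levels, rather than shares, did not overlap in 39.7% of all genes tested. Shares of a class are parts of the same total, so they do not move independently. The share of Cacna1b was higher in NTG, while the log2 fold change of its own level was -0.14. Shares with the trends removed were not computed, but the ratios of members given above then all overlapped between groups.

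**Figure D4:**
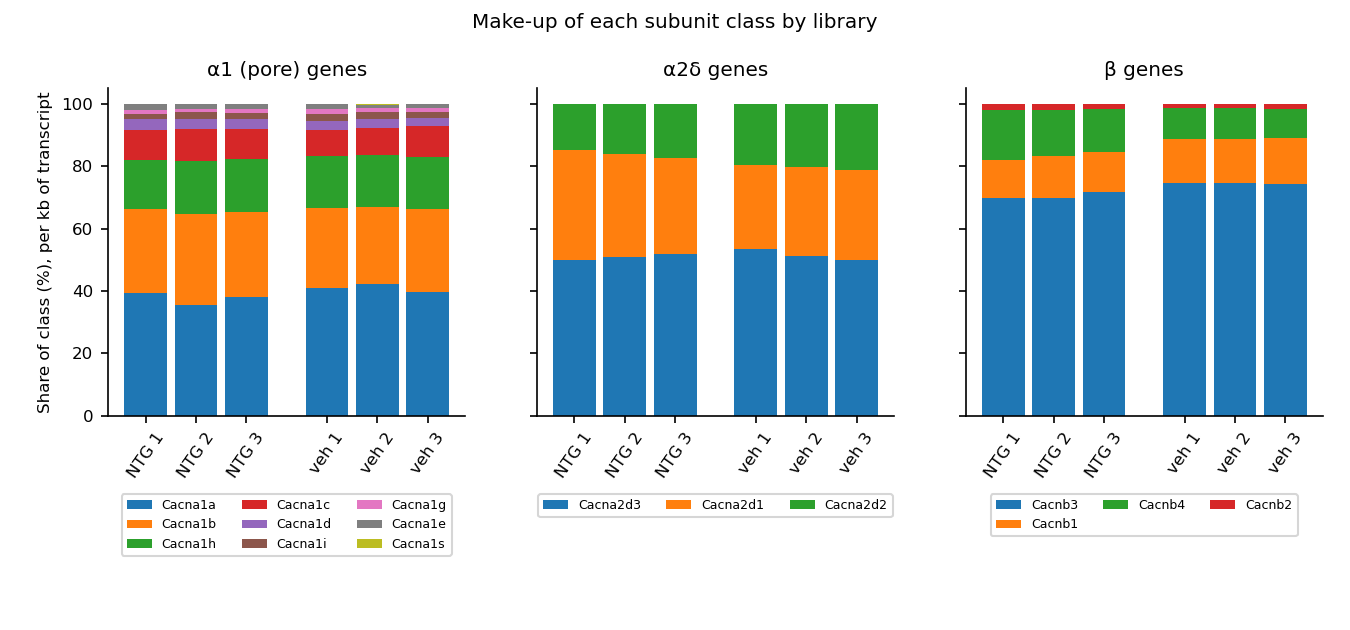
Share of each gene (stacked bars, percent of the class total per kb of transcript) in the α1, α2δ and β subunit classes, for NTG libraries 1 to 3 and then vehicle (veh) libraries 1 to 3. Cacnb3 is the largest β share in every library, and the Cacnb4 share is larger in the NTG libraries, 13.7% to 16.0%, than in the vehicle libraries, 9.42% to 10.1%.

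Of the 16 other voltage-gated calcium channel subunit genes listed, 12 were tested. The others, Cacna1f, Cacna2d4, Cacng1 and Cacng6, were not among the genes of the table. Of the 12 tested, 0 rose and 5 fell, with a median log2 fold change of -0.33. Over all genes tested the median was 0.00, and 12.3% rose and 13.5% fell. Without the trends 0 of the 12 rose and 1 fell, and their median was -0.07, beside 0.01 over all genes. Cacnb1, the remaining well-expressed β gene, fell by 0.41 ± 0.08 on the log2 scale (SE, limma adjusted p = 0.000592), with 989, 1149 and 1169.6 normalised reads in NTG, against 1364, 1455 and 1559.9 in vehicle. The T-type pore genes outside the members fell, while the member Cacna1h had not passed. Cacna1i had 183 ± 38.6 normalised reads in NTG and 263 ± 10.6 in vehicle (SD, n = 3 each, log2 fold change -0.54, limma adjusted p = 0.0101). Cacna1g had 94.6 ± 7.95 in NTG and 135 ± 6.05 in vehicle (-0.52, limma adjusted p = 0.0294). Cacng7 fell as well (-0.23, limma adjusted p = 0.00686). None of these 4 passed with the trends removed (limma adjusted p = 0.317 for Cacnb1, 0.210 for Cacna1i, 0.325 for Cacna1g and 0.953 for Cacng7). Cacng2, which encodes stargazin, known mainly as an auxiliary subunit of AMPA receptors, was the exception. Cacng2 had 449, 435 and 545 normalised reads in NTG, against 704, 618 and 694 in vehicle. It fell by 0.50 ± 0.10 before the trends were removed (SE, limma adjusted p = 0.000802) and by 0.50 after (limma adjusted p = 0.000930), at a transcript GC content of 51.2%.

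Cacna1e, the R-type pore gene, had 260.5 ± 28.8 normalised reads in NTG and 235 ± 8.84 in vehicle (SD, n = 3 each; log2 fold change 0.14, limma adjusted p = 0.430). Cacnb2 (0.11, limma adjusted p = 0.639), Cacng3 (0.04, 0.954), Cacng4 (-0.26, 0.167), Cacng5 (-0.05, 0.788) and Cacng8 (-0.48, 0.146) did not pass either. Cacna1s, the pore of skeletal muscle, was near the floor, at 6.29 to 14.7 normalised reads in NTG and 6.61 to 25.7 in vehicle. Skeletal muscle markers were low in both groups (65.8 to 72.1 CPM summed over 12 genes in NTG and 71.7 to 80.3 CPM in vehicle, a sum that includes Pvalb, which sensory neurons also express). Of these 12, 7 fell and 0 rose (5 and 0 with the trends removed). Over all genes tested 13.5% fell and 12.3% rose, and 9.01% of those with a known transcript passed with the trends removed. The median log2 fold change of the 12 markers was -1.43, and -1.27 with the trends removed, a difference that the sums do not show. Among the falls were Myh4 (5.14 ± 1.90 normalised reads in NTG and 48.3 ± 39.0 in vehicle, SD, n = 3 each) and Atp2a1 (16.1 ± 1.79 in NTG and 60.4 ± 29.1 in vehicle). The part of these markers in the channel genes was not tested.

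Partners and regulators of the channels gave 4 rises and 6 falls among 32 genes, and 0 rises and 1 fall with the trends removed. Over all genes tested 12.3% were rises and 13.5% falls, and 9.01% of genes with a known transcript passed with the trends removed. Cbarp, an inhibitor that binds β subunits, fell by 0.56 ± 0.07 on the log2 scale (SE, limma adjusted p = 1.24e-05), with 2713 ± 219 normalised reads in NTG and 3991 ± 309 in vehicle (SD, n = 3 each). The calcium sensor gene Cabp1, whose product binds Cav1 and Cav2 pores, fell by 0.61 (limma adjusted p = 0.00223). The active zone gene Erc2 rose by 0.31 (limma adjusted p = 0.00144), and the calmodulin gene Calm3 fell by 0.15 (limma adjusted p = 0.0149). None of these 4 passed once the trends were removed (limma adjusted p = 0.0955 for Cbarp, 0.678 for Cabp1, 0.0832 for Erc2 and 0.0515 for Calm3), and the sign of Calm3 turned, to a log2 fold change of 0.10. The 1 gene that fell with the trends removed was another of the 32.

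G protein βγ subunits released by opioid and other receptors inhibit Cav2 channels. Of 12 G protein subunit genes 3 rose and 5 fell, and with the trends removed 0 rose and 2 fell. Among all genes tested 12.3% rose and 13.5% fell, and 9.01% of those with a known transcript passed with the trends removed. Gng2 had 4567 ± 255 normalised reads in NTG and 3587 ± 207 in vehicle (SD, n = 3 each; log2 fold change 0.35, limma adjusted p = 0.000250). Gnai2 (-0.32, limma adjusted p = 0.000182), Gnb2 (-0.31, 0.000858) and Gng3 (-0.24, 0.00181) fell. None of these 4 passed with the trends removed (limma adjusted p = 0.0634, 0.0815, 0.816 and 0.0524 in that order). The 2 genes that fell with the trends removed were others of the 12. Of 25 genes of calcium stores, pumps, exchangers and buffers 3 rose and 1 fell, with a median log2 fold change of 0.00, and with the trends removed 0 passed. The rises were those of Slc24a2, a sodium, calcium and potassium exchanger (0.33, limma adjusted p = 4.93e-05), Calb1, the buffer calbindin (0.41, limma adjusted p = 0.000428), and Atp2b1, a plasma membrane calcium pump (0.15, limma adjusted p = 0.0467), whose sign turned after removal of the trends (-0.09, limma adjusted p = 0.291). The store-operated channel gene Orai1 fell by 0.39 (limma adjusted p = 0.0196).

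On GRCm38 the table places Cacnb4 on chromosome 2 (52428320 to 52676609, minus strand), Cacnb3 on chromosome 15 (98628436 to 98644536, plus), Cacna2d1 on chromosome 5 (15934264 to 16374511, plus), Cacna2d2 on chromosome 9 (107399733 to 107529346, plus) and Cacna1a on chromosome 8 (84338631 to 84640251, plus). Some members overlap other genes of the table. The percentages that follow are of the member's mean normalised reads, not scaled to transcript length. Cacnb4 overlaps the long non-coding gene A430018G15Rik on the opposite strand, at 33.5%. Cacna1a overlaps Gm39212 and Gm16183, at 9.33% and 1.91%. Cacna1d overlaps the opposite-strand genes Chdh and Dcp1a, at 249% and 110%. Cacna1c overlaps Dcp1b and Gm38887 on the opposite strand, at 14.2% and 7.17%, and Gm50599 on the same strand, at 1.59%. Libraries were strand-specific, per the labels' protocols, but the strand setting of the counting is not given in the sources used here, so reads shared at these overlaps cannot be told apart.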

How the data were processed

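Trigeminal ganglion RNA was taken up in TRIzol, selected on poly-T beads, converted to strand-specific NEBNext Ultra libraries and read from both ends on a NovaSeq, per the labels' protocols. FastQC, HISAT2 and the build GRCm38 are named in the submitters' processing notes. How reads were counted (tool, strand, annotation) and normalized is not stated in these sources. The deposited values are a signal, gene counts that the authors divided by a size factor of each library: 100% of them became whole numbers, within 0.01, when divided by the value of 1 read. In these libraries 0.126 to 0.159 CPM is worth 3 reads, a limit of counting error only.

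The main test was limma-trend (robust empirical Bayes, two-sided), run on log2(value + 1). It took genes that reached a value of 1 in 3 or more libraries, and p-values were Benjamini-Hochberg adjusted over all of these. Fold changes on this scale understate those of low genes. edgeR's quasi-likelihood test on the recovered reads called 4544 genes. GC content and length came from each gene's longest GENCODE M21 transcript (protein-coding where it has one), matched for 16327 genes (93.2%). Smooth functions of both (mgcv) were fitted to each library's deviations from the gene means and subtracted, which also takes out any real change that follows them. Ratios were compared by exact permutation. The named genes were the 10 members, the other subunit genes tested and, from each further list, up to 4 with the smallest p. Members and lists were chosen with earlier results of these data known. The β docking motif was searched in the translated coding sequences by its conserved residues. Libraries of a group were not duplicates (chi-square per degree of freedom 3.99 to 7.37). Alternatives changed the pseudocount, filter, scaling and tool (edgeR, DESeq2, limma-voom), asked for a fold above 1.2, added a replicate block, removed the trends or left out a library. Scripts were tested on simulated data. Versions were limma 3.58.1, mgcv 1.9.3, DESeq2 1.42.0 and edgeR 4.0.16 under R 4.3.3, and scipy 1.17.1, numpy 2.4.6, pandas 2.3.3 and matplotlib 3.10.9 under Python 3.11.15.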

Additional observations from a re-analysis of the deposited data

How the results depend on the processing

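Under the other pseudocounts, filters, scalings and count tests the calls of Cacnb4, Cacna2d1, Cacnb3, Cacna2d2 and Cacna1a held. Against a minimum fold of 1.2, 313 genes passed and 0 members rose or fell. With the GC and length trends removed 1467 genes passed and 0 members rose or fell. The ratio differences were then -0.046 for Cacna1a to Cacna1b, 0.12 for Cacna2d1 to Cacna2d2, -0.029 for Cacna2d3 to Cacna2d1 and 0.036 for Cacnb4 to Cacnb3. Log2 fold changes turned sign in Cacna1d (-0.017), Cacna1h (0.0056), Cacna2d1 (-0.055) and Cacnb3 (0.014). The cause was not tested.

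With 1 library left out, with or without the trends, 717 to 4678 genes passed, 0 to 2 members rose and 0 to 6 fell, and 2946 genes passed without NTG replicate 2 on the values as deposited. On these values Cacna1c lay between -0.26 and 0.0075, turning sign without vehicle replicate 3, and Cacna2d3 between -0.042 and 0.00030, turning sign without NTG replicate 1. The ratio differences lay between -0.29 and -0.16, 0.46 and 0.68, -0.32 and -0.19, and 0.62 and 0.75, in the order above. With the trends removed, 1099, 717 and 1054 genes passed without NTG replicates 1, 2 and 3, and 1546, 944 and 1619 without vehicle replicates 1, 2 and 3. Signs opposite to the values as deposited were then found in Cacna1d without NTG 3 (-0.057), vehicle 1 (-0.056) and vehicle 2 (-0.0035), and in Cacna1h without NTG 1 (0.069), vehicle 2 (0.0018) and vehicle 3 (0.044). Cacna2d1 had -0.076, -0.058 and -0.030 without NTG 1, 2 and 3, and -0.10, -0.025 and -0.039 without vehicle 1, 2 and 3. Cacnb3 had 0.031 and 0.011 without NTG 1 and 3, and 0.0062, 0.0028 and 0.029 without vehicle 1, 2 and 3.

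Libraries with the same replicate number did not deviate together (correlations 0.0041, -0.033 and -0.025 for numbers 1 to 3), and no NTG library correlated best with its own number, so the numbers were not taken as pairs. With the replicate block 5254 genes passed, 2 members rose and 5 fell, Cacna1h (adjusted p = 0.000586) and Cacna1b (0.0338) besides the 3 of the unblocked test. With the block and the trends removed 1984 genes passed, 0 members rose and 1 fell, Cacna1a (adjusted p = 0.0456), and the log2 fold changes were -0.017 for Cacna1d, 0.0056 for Cacna1h, -0.055 for Cacna2d1 and 0.014 for Cacnb3. Of the members Cacna1d had the fewest reads.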
